A study of Mus musculus with 4 samples.

Results

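Processed pseudogenes are copies of messenger RNAs that were reverse transcribed and inserted back into the genome, and in the mouse many of them carry the name of the gene they came from followed by -ps and a number. The count table of 4 astrocyte cultures was searched for entries of the biotype pseudogene or transcribed_pseudogene whose symbol ends in that way, ribosomal protein names included. This gave 745 named pseudogenes among 45703 genes, of which 631 were of the biotype pseudogene and 114 of the biotype transcribed_pseudogene. Another 5583 entries of these biotypes carry other names. The choice rests on names and biotypes alone and uses no count.

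Such a copy has the sequence of a spliced messenger RNA, so it lacks the introns of its parent gene and usually lacks a promoter. Ribosomal protein genes, translation factors and other highly transcribed housekeeping genes are known as the parents of most of them. Because a young copy differs from its parent at few positions, a short read from the parent's RNA can fit the copy as well, and a counting program has to drop, keep or divide that read. A count on such a gene is therefore a statement about reads and not, by itself, about transcription of the copy.

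The samples were 4 dishes of primary glial cells labelled as cortical astrocytes, prepared from the frontal cortex of wild-type CD-1 mice at postnatal day 4. All were grown in serum medium with B27 supplement and epidermal growth factor, reseeded at day 6 in vitro, and kept for 1 h in serum-free Ham's medium before RNA was taken 3 days later. All 4 form 1 group, no agent was compared, and the labels give neither a sort nor the number of mice behind a dish, so that the spread between libraries may be technical. Poly-A RNA was sequenced with a stranded kit, and the libraries held 37300485 to 42369109 counts. With 4 libraries an exact two-sided permutation test of signs cannot reach p = 0.05, and values are therefore given as descriptions, as mean ± SD over n = 4.

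All 8 astrocyte markers reached 1 count per 1000000 counts of the library (CPM) in every library, with a summed level of 5614 CPM in culture 4 and 6687 to 6874 CPM in cultures 1 to 3. Culture 4 stood apart from the others. Over the pseudogenes with at least 1 CPM everywhere, the median absolute log2 difference was 0.15 to 0.16 between culture 4 and each other culture and 0.05 to 0.06 between cultures 1, 2 and 3. Fibroblast markers summed to 80.7 CPM in culture 4 and to 603 to 658 CPM in cultures 1 to 3, with 2 of 4 of them at 1 CPM or more. Neuron markers summed to 17.6 CPM in culture 4, against 32.6 to 33.9 CPM, with 2 of 4 at that level, and microglia markers to 15.9 CPM, against 23.3 to 28.1 CPM, with 3 of 4. Oligodendrocyte lineage markers (4 of 4) summed to 266 CPM in culture 4, against 271 to 281 CPM, mural cell markers (3 of 4) to 1976 CPM, against 1892 to 2010 CPM, and endothelial markers (1 of 4) to 6.04 CPM, against 7.01 to 7.91 CPM. No marker had a mean of 0, though an endothelial one averaged 0.0059 CPM. Their part in the values below was not tested.

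The label processed was checked against the annotation. Of the 745 pseudogenes, 562 lie in the table as a single uninterrupted block, and for 551 a parent gene was found in the table by name, 522 by symbol and 29 by a synonym. These 551 trace to 289 parent genes. In 463 cases a copy in 1 block faced a parent in several blocks, the layout of a retroposed copy, while 85 copies with a parent were themselves in several blocks. GENCODE M21 held an entry for 700 of the 745, of which 488 (69.7%) were typed as processed or transcribed processed pseudogenes and 180 as unprocessed ones, which arise by duplication of the gene itself. The name thus holds for most of the set and not for all of it.

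A total of 317 named pseudogenes (42.6%) had at least 1 CPM in every library, against 32.2% of all entries in the table and 20.1% of the other pseudogene entries. At the other end, 210 had no count in any library and 300 had at most 3 counts in total, the floor below which no level is given. The 317 had mean levels of 1.15 to 323 CPM with a median of 13.2 CPM, where 1 read was worth 0.0236 to 0.0268 CPM. Of the whole set, 188 averaged 10 CPM or more and 10 averaged 100 CPM or more. Together the 745 took 8642 CPM in culture 4 and 8051 to 8149 CPM in cultures 1 to 3, which was 0.805% to 0.864% of a library, and the top 20 held 32.6% of that.

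The annotation type divided the set sharply. Of the 488 pseudogenes typed as processed by GENCODE, 274 (56.1%) reached 1 CPM in every library, whereas 13 of the 180 unprocessed ones (7.22%) did. Copies of vomeronasal receptor genes, which serve pheromone sensing, were at 0 in 29 of 29 members named after Vmn1r and in 18 of 21 named after Vmn2r. Olfactory receptor copies were at 0 in 27 of 29, with 1 of them above 1 CPM everywhere, and all 6 members named after Defa, the Paneth cell defensins, were at 0. For a total of 0 counts the floor of 3 counts allows up to 0.0708 to 0.0804 CPM in a library, counting error only.

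Ribosomal protein copies made up a large share. Of 138 copies of large subunit (Rpl) genes 74 reached 1 CPM (53.6%), and of 93 copies of small subunit (Rps) genes 56 did (60.2%). Of the 320 copies of other parents 164 did (51.3%), and of the 194 with no parent by name 23 did (11.9%). In reads, the 2 ribosomal groups took 1575 CPM (Rpl) and 1164 CPM (Rps), less than the 4915 CPM of the copies of other parents.

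The highest count belonged to Ubb-ps, a copy on chromosome 14 of the polyubiquitin gene Ubb, with 353 CPM in culture 4 and 309.8, 310.2 and 317 CPM in cultures 1 to 3. Per length it had 459 ± 29.4 reads per kilobase and 1000000 counts (RPKM), against 371 ± 11.98 RPKM for Ubb. Eef1a1-ps1 on chromosome 19, a copy of the elongation factor gene that brings aminoacyl-tRNA to the ribosome, followed with 251.3 CPM in culture 4 and 222 to 235 CPM in the others. Its level was 135 ± 7.05 RPKM, only 6.12% of the 2198 ± 109 RPKM of Eef1a1, which is among the most heavily transcribed genes of most cells. High reads on a copy thus came with very different levels relative to the parent.

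**Figure D1:**
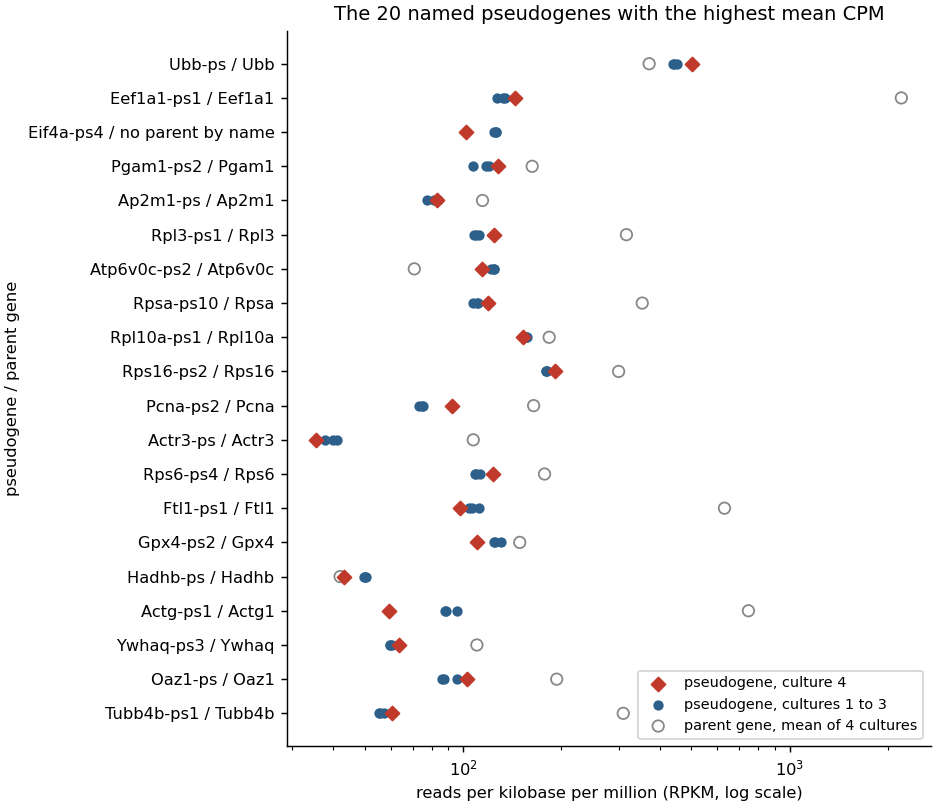
RPKM on a log axis of the 20 named pseudogenes with the highest mean CPM (rows, in falling order of CPM), as filled diamonds for culture 4 and filled circles for cultures 1 to 3, with the mean of the parent gene over 4 cultures as an open circle. Ubb-ps and Atp6v0c-ps2 lie to the right of their parents, Hadhb-ps lies just to the right of its parent, and Eef1a1-ps1, Actg-ps1 and Ftl1-ps1 lie far to the left of theirs.

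Pgam1-ps2, a copy of the glycolytic phosphoglycerate mutase gene, had 118 ± 8.72 RPKM, against 163 ± 11.02 RPKM for Pgam1. Its sequence in GENCODE is identical to Pgam1 over its whole length, so every stretch of it occurs in the parent. The same held for Rpl10a-ps1 (155 ± 2.07 RPKM, against 183 ± 0.656 RPKM for Rpl10a), for Rps16-ps2 (183 ± 5.35 RPKM, against 299 ± 11.01 RPKM for Rps16) and for Rps6-ps4. Atp6v0c-ps2, a copy of the gene for the proton-channel ring of the vacuolar ATPase, had 121 ± 4.75 RPKM, against 70.9 ± 3.07 RPKM for Atp6v0c. Other housekeeping copies in the top 20 were those of Ap2m1 (a clathrin adaptor), Pcna (the replication clamp), Actr3 (actin branching), Ftl1 (ferritin light chain), Gpx4 (lipid peroxide reduction), Hadhb (mitochondrial fatty acid oxidation), Actg1 (cytoplasmic actin), Ywhaq (a 14-3-3 protein), Oaz1 (polyamine control) and Tubb4b (tubulin). Their copies had 88.4 to 155 CPM.

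Most counts of the named pseudogenes were not whole numbers. Among values above 0, 83.3% were not whole in the named pseudogenes (80.04% to 84.7% per library), 77.2% in their parents, 77.2% in other pseudogenes and 26.3% in protein-coding genes, taking only exactly whole values as whole. Among the 317 pseudogenes with at least 1 CPM everywhere, 245 (77.3%) had a count that was not whole in all 4 libraries, against 15.4% of the other genes at that level. Of the other pseudogenes at that level, 769 of 1121 had such counts. Within the 317 the share was 56 of 56 for Rps copies, 70 of 74 for Rpl copies and 106 of 164 for copies of other parents. By values, 89.2% were not whole in these 317, 85.1% in their parents and 86.2% in the other pseudogenes at that level. By genes, 118 of the 180 parents had a count that was not whole in all 4 libraries. The sources used here do not say how reads with several places were treated.

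The fractions themselves carried a pattern. In 33 of the 317 all counts were multiples of a 1/2 step, in 34 of a 1/6 step and in 10 of a 1/12 step, within the rounding to 2 decimals, while the counts of 231 were multiples of none of these, nor of a 1/3 or 1/4 step. Where both a copy and its parent had a fractional count, in 1001 pairs of values, the sum of the pair was whole in 113 (11.3%), within 0.015. Counts that both end in 1/2 always sum to a whole number, so this share is in part fixed by arithmetic. How large that part is was not computed, and no link of copy and parent is read from the share. In 3 pairs the sum was whole in all 4 libraries, Ndufs5-ps with Ndufs5, Tmem229b-ps with Tmem229b and Orai2-ps with Orai2. The counts of Orai2-ps were all multiples of 1/2. For Ndufs5-ps, named for a subunit of respiratory complex I, the only gene that shared a stretch of 50 bases was its parent, and its counts were 1088.83 in culture 4 and 1122.33, 1112.83 and 1011.5 in cultures 1 to 3.

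Copies of Rpl35a, a large subunit gene, had nearly equal counts. Rpl35a-ps2, Rpl35a-ps3, Rpl35a-ps4 and Rpl35a-ps6 lie on 4 different chromosomes (1, 17, 2 and 5), yet their counts ran from 729.63 to 746.96 in culture 4, from 738.20 to 753.29 in culture 1, from 751.86 to 767.37 in culture 2 and from 738.20 to 750.08 in culture 3. In all 4, every stretch of 50 bases of the GENCODE sequence occurs in the transcripts of another gene. That sequence has 333 bases for Rpl35a-ps2 and Rpl35a-ps4, whose counted entries have 439 and 418 bases, and the rest was not searched. Among the 237 pairs of copies of 1 parent at this level, 9 pairs agreed within 5% in every library, 6 of them among these 4 copies and the others among copies of Rpl10, Rpl30 and Rps12. At the low end, 8 Rps12 copies on the X chromosome each held 0.10 counts in total, in 1 library, and every stretch of each occurs in another gene too. A level near 0 can therefore also belong to a copy without unique sequence in the part searched.

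Sequence sharing was measured on GENCODE M21 transcripts as the share of a pseudogene's 50-base stretches found, on either strand, in another gene's transcripts. Unannotated genome sequence was not searched. The GENCODE sequence was often shorter than the counted entry, for example 654 against 713 bases for Rpl10a-ps1 and 1218 against 1778 for Eif4a-ps4. The rest of such an entry was not searched. The median share was 64.1% for the 296 pseudogenes with a sequence and at least 1 CPM everywhere (quartiles 40.03% and 87.3%) and 10.2% for the 404 below that. Identity to the parent had a median of 98.7% in 272 of the higher set and of 91.8% in 232 of the lower one. Of the pseudogenes with no shared stretch 3 of 66 (4.55%) reached 1 CPM everywhere, of those with more than 0 to 10% shared 12 of 149 did (8.05%), and of those with more than 50% to 75% shared 76 of 103 did (73.8%). In the top class, more than 75% shared, 117 of 171 did (68.4%) and 54 did not.

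**Figure D2:**
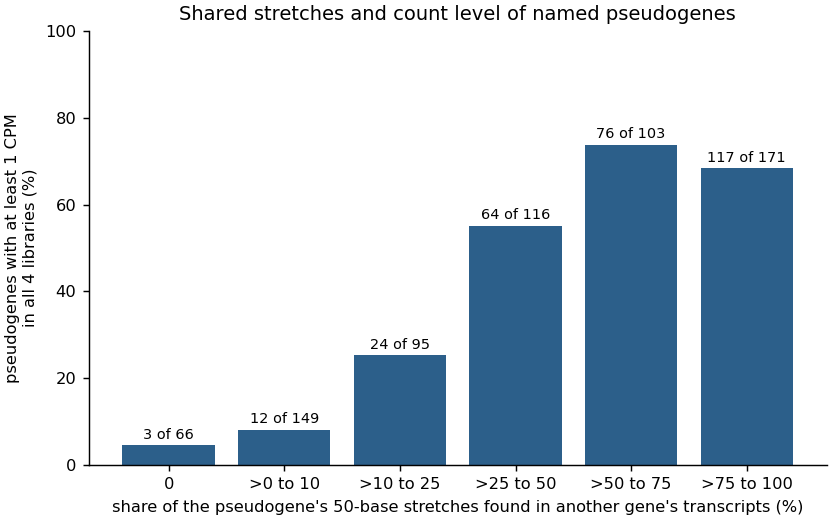
Share of named pseudogenes with at least 1 CPM in all 4 libraries (vertical axis, %) in 6 classes of the share of their 50-base stretches found in another gene's transcripts (horizontal axis, %), for the 700 with a GENCODE sequence. Numbers over the bars give the pseudogenes at that level of all in the class, from 3 of 66 with no shared stretch to 76 of 103 and 117 of 171 in the last 2 classes.

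The same order was seen when only pseudogenes with a parent of at least 10 CPM were taken. Then 6.45% of 31 with no shared stretch reached 1 CPM everywhere, 10.8% of 93 with up to 10% shared, 41.8% of 55, 81.1% of 74, 91.1% of 79 and 85.7% of 126 in the classes above. Across those 458 pseudogenes the share of stretches found elsewhere and the mean CPM had a Spearman rho of 0.66, and across 275 at 1 CPM or more the share and the log2 ratio to the parent had one of 0.47. These are descriptions across genes that share parents and libraries, and copies of 1 parent are not independent. The typical copy shared stretches with a median of 8 other genes, 49 copies with exactly 1, 128 with 10 or more, and Olfr1372-ps1 with 612.

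Few of the well-counted copies held whole counts. Only 6 of the 317 had whole counts in all 4 libraries. These were Nudc-ps1 with 37.5 ± 1.84 CPM, Zfp862-ps with 33.1 ± 1.48 CPM, Ppp4r1l-ps with 5.48 ± 0.657 CPM, Cd9-ps with 4.97 ± 0.824 CPM, Slc2a4rg-ps with 4.47 ± 0.403 CPM and Zfp36l1-ps with 3.76 ± 0.339 CPM. Zfp862-ps, Slc2a4rg-ps and Ppp4r1l-ps are not retroposed copies in GENCODE, and 0.881% of stretches were shared in Zfp862-ps and 0% in the other two.

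Nudc-ps1 and Cd9-ps are a near and a more distant retroposed copy with whole counts, and their most divergent 90 bases show how far each is from its parent. The letters run 5′ to 3′ on the gene's strand, come from GENCODE M21 on GRCm38, and are capitals where copy and parent differ. The Nudc-ps1 window is chr8:29286892-29286981 on the minus strand and the Nudc window is coding bases 442 to 531 of Nudc, a chromosome 4 gene for a dynein-associated protein. The Cd9-ps window is chr7:41682947-41683036 on the minus strand and the Cd9 window is coding bases 283 to 372 of Cd9, a chromosome 6 gene for a tetraspanin.
Nudc-ps1: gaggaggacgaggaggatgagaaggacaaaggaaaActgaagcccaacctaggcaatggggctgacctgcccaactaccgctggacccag
Nudc: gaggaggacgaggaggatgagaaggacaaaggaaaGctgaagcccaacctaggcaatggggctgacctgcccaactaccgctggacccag
Cd9-ps: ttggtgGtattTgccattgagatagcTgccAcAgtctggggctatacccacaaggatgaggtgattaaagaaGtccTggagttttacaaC
Cd9: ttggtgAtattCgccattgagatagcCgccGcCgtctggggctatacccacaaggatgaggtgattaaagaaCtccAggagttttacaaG

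Nudc-ps1 differs from Nudc in 6 of 555 alignment columns, gaps included (98.9% identity), and no gap-free window of 90 coding bases held more than 1 difference. Even so, 82.9% of the stretches of its GENCODE sequence occur in Nudc. Its counts were whole, 1694 in culture 4 and 1535, 1424 and 1389 in cultures 1 to 3. Any bases of the counted entry outside the GENCODE sequence were not searched. The level of Nudc-ps1 was 49.3 ± 2.42 RPKM, against 103 ± 6.04 RPKM for Nudc. Cd9-ps differs from Cd9 in 62 of 664 alignment columns (90.7% identity), 8 of them in the window shown, and only 2.33% of its stretches occur in Cd9. It had 4.37 ± 0.724 RPKM, against 316 ± 14.0 RPKM for Cd9, or 1.38%. Zfp36l1-ps, a copy of an mRNA decay factor gene, was of the same kind, with 94.7% identity and 3.10 ± 0.279 RPKM, against 33.3 ± 1.61 RPKM for Zfp36l1. So a whole count came both with a copy nearly identical over the sequence compared and with diverged ones.

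Relative to their parents, most copies had low levels per length. Over the 294 pseudogenes with a parent and at least 1 CPM everywhere, the median log2 ratio of copy to parent RPKM was -2.69, or 15.5% of the parent, with quartiles of -4.11 and -1.18. The ratio varied little between libraries, with a median SD of 0.05. In 263 of the 294 the copy was below its parent in all 4 libraries, in 22 it was at or above the parent in all 4, and in 9 the libraries differed. A level under 10% of the parent was seen in 104 copies and one under 1% in 9. The median log2 ratio was -2.83 for Rpl copies, -3.84 for Rps copies and -2.14 for copies of other parents.

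**Figure D3:**
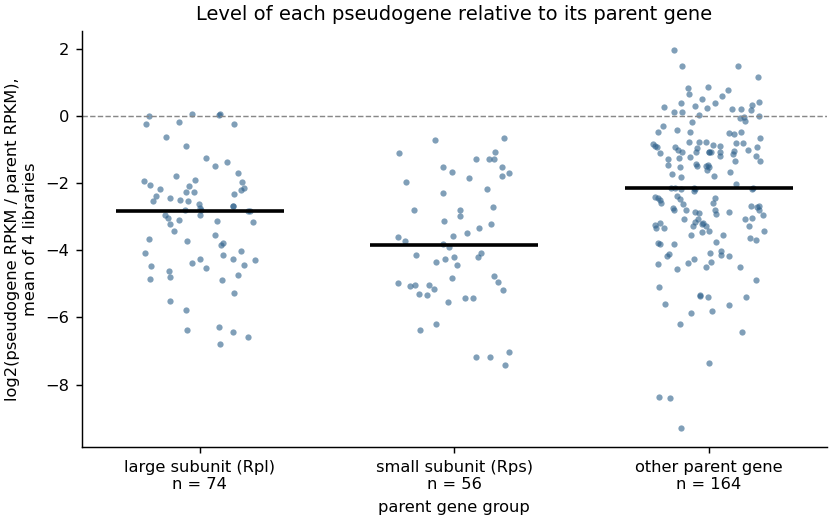
Log2 ratio of pseudogene RPKM to parent RPKM (vertical axis, mean of 4 libraries) for 74 copies of large subunit genes, 56 copies of small subunit genes and 164 copies of other parents, each point 1 pseudogene and each bar the median. The medians lie at -2.83, -3.84 and -2.14, and points above the dashed line at 0 are mainly copies of other parents.

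The copies at or above their parent depended on the length term. Rbpj-ps3, a copy of the gene for the transcription factor of Notch signalling, had a log2 ratio of 1.97 ± 0.06, with 12.7 ± 0.657 RPKM, against 3.24 ± 0.0362 RPKM for Rbpj. Mpc1-ps, a copy of a mitochondrial pyruvate carrier gene, had 60.8 ± 4.25 RPKM, against 21.5 ± 1.39 RPKM for Mpc1, and Mrpl23-ps1, a copy of a mitochondrial ribosomal protein gene, had 19.0 ± 0.433 RPKM, against 8.47 ± 0.369 RPKM for Mrpl23. The combined exons of these parents are long (17477 bases for Rbpj, against 1734 for the copy), and without the length term the log2 ratios were -1.36, -0.59 and -0.54. With GENCODE transcript lengths for both copy and parent in place of the combined exons they were 0.56, 0.95 and -0.28. Where the GENCODE sequence of a copy is shorter than its counted entry, as in Hadhb-ps (1428 against 1959 bases), this setting raises the copy's level. By CPM alone only 5 copies were at or above their parent in all libraries, among them Atp6v0c-ps2, Tdg-ps2 and Gpr137b-ps.

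The other 2 of those 5 had a doubtful parent. Gstm2-ps1, named for a glutathione transferase, had 60.2 ± 6.98 RPKM, against 32.8 ± 1.47 RPKM for Gstm2, but its sequence is 97.9% identical to Gstm1 and 85.6% identical to Gstm2, and none of its stretches occurs in Gstm2. Gstm1 itself had 1487 ± 171 CPM. Ck-ps3 was matched by a synonym to Chkb, a choline kinase gene, whereas the table describes it as a creatine kinase pseudogene, so its log2 ratio of 1.51 has no clear meaning. The parent by name was the best protein-coding match of the sequence in 268 of 275 cases.

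Among the lowest ratios were those of copies of abundant messenger RNAs. Actb-ps1, a copy of the beta-actin gene, had 2.16 ± 0.206 RPKM, against 1363 ± 51.1 RPKM for Actb, a log2 ratio of -9.31 ± 0.14. It is 85.9% identical to Actb and shares only 1.39% of its stretches with it, although 97.7% occur in some other transcript. Slc25a5-ps (an ADP/ATP carrier copy) had a log2 ratio of -8.41 ± 0.11, Ftl1-ps2 of -8.38 ± 0.05 and Mrto4-ps2 (a ribosome assembly factor copy) of -7.35 ± 0.07. Of these, Slc25a5-ps had 6.91% of its stretches in other transcripts, far below the median of 64.1%.

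Ribosomal protein families differed in how many copies held reads. Of 22 Rps12 copies 8 reached 1 CPM, and all 22 together took 37.1 ± 2.55 CPM of reads, while the Rps12 entry took 292 ± 15.03 CPM. Of 11 Rpl23a copies only Rpl23a-ps3 did, with 71.6 ± 4.73 CPM, or 99.8% of the reads of the family. Of 11 Rpl19 copies 6 did, led by Rpl19-ps11 with 70.2 CPM, and all 5 Rpl10 copies did, with 142 ± 5.89 CPM together. The 6 Rpl35a copies took 79.1 ± 4.25 CPM together and the Rpl35a entry 27.9 ± 16.1 CPM, so that most of the reads counted for this family were on copies. Outside the ribosome, the 5 copies of Cbx3, a heterochromatin protein gene, all reached 1 CPM, and Cbx3-ps6 had 50.4 ± 4.04 RPKM, against 50.7 ± 4.12 RPKM for Cbx3.

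The biotype transcribed_pseudogene, given where RNA evidence exists, did not go with higher counts. Of its 114 members 38 reached 1 CPM everywhere (33.3%), against 279 of 631 (44.2%) of the biotype pseudogene. At that level the medians were 12.9 CPM and 13.2 CPM, and the medians of shared stretches 64.02% (n = 33) and 64.1% (n = 263). A count that was not whole in all libraries was seen in 21 of the 38 and in 224 of the 279. Of the 30 transcribed ones with a parent, 5 were at or above it in all libraries, among them Ubb-ps, Atp6v0c-ps2, Tdg-ps2 (a copy of a thymine DNA glycosylase gene), Apoo-ps and Gpr137b-ps. The lowest of the 38 was Hmga2-ps1 with 1.68 ± 0.205 CPM.

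Of the 745 named pseudogenes, 203 lie within or across the span of another gene of the table. The same share over all genes was not computed. Of the 317, 115 lie so, and 45 overlap an annotated exon of another GENCODE gene. The highest were Ap2m1-ps in an intron of Mbd5, Rps16-ps2 in an intron of Adgrd1, Rps6-ps4 within 2600014E21Rik, Ftl1-ps1 over Mir692-3 and Ywhaq-ps3 within Cdk5rap2. The sources used here do not say whether counting used strand, so reads of a host gene and of a copy in it cannot be told apart where they overlap. On the Y chromosome 1 of 8 named pseudogenes reached 1 CPM everywhere, Mid1-ps1 with 24.5 ± 0.648 CPM, of whose stretches 86.2% occur in Mid1.

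Of the 23 well-counted pseudogenes with no parent by name, most had a clear match in sequence. Eif4a-ps4, behind only Ubb-ps and Eef1a1-ps1 with 213 ± 21.2 CPM, is 99.9% identical to Eif4a1, the RNA helicase of translation initiation. It is shown together with Eef1a1-ps1 because both rank among the 3 highest while their distance from the parent differs. The Eif4a-ps4 window is chr1:60704376-60704465 on the plus strand, against coding bases 445 to 534 of Eif4a1 on chromosome 11, and holds the only difference in 1218 aligned positions. The Eef1a1-ps1 window is chr19:17926623-17926712 on the plus strand, against coding bases 1 to 90 of Eef1a1 on chromosome 9, and holds 5 of its 37 differences in 1387 positions. Capitals mark the differing bases.
Eif4a-ps4: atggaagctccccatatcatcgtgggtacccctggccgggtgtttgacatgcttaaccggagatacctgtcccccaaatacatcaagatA
Eif4a1: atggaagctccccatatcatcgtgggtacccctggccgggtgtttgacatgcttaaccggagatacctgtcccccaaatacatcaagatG
Eef1a1-ps1: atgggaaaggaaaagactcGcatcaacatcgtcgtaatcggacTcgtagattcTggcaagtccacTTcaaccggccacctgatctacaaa
Eef1a1: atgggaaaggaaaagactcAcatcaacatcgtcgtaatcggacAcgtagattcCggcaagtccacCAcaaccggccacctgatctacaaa

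In Eif4a-ps4, 95.7% of stretches occur elsewhere, against 36.5% in Eef1a1-ps1. In culture 4 the copy was lower and its match higher. Eif4a-ps4 had 181 CPM in culture 4 and 222, 224 and 224 CPM in cultures 1 to 3, whereas Eif4a1 had 717 CPM in culture 4 and 522, 524 and 522 CPM in cultures 1 to 3. Others without a parent by name were Dynlt1-ps1, whose sequence is 100% identical to the dynein light chain gene Dynlt1c, Hsp25-ps1, 99.4% identical to the small heat shock gene Hspb1, and Gstp-ps, 99.2% identical to Gstp2.

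In culture 4 most copies and most parents were higher than in cultures 1 to 3. Over 319 pseudogenes with a mean of at least 1 CPM, 227 (71.2%) were higher in culture 4 than the mean of cultures 1 to 3, against 56.1% of all genes at that level. The median log2 difference was 0.12 for the pseudogenes and 0.03 for all genes. Among Rpl copies 67 of 74 were higher in culture 4, as were 27 of their 28 parents, and among Rps copies 47 of 56, as were 19 of 20 parents. With TMM-scaled or DESeq2-scaled libraries 66 Rpl copies and 47 Rps copies were higher. Copy and parent deviated in the same direction in 255 of 294 pairs, where 215 of the copies and 222 of the parents were higher in culture 4, so that many pairs share a direction for that reason alone. The Spearman rho across these pairs was 0.56 and Pearson's r was 0.07, as descriptions across genes that share libraries and, in part, reads. A handful of pairs lie far out.

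**Figure D4:**
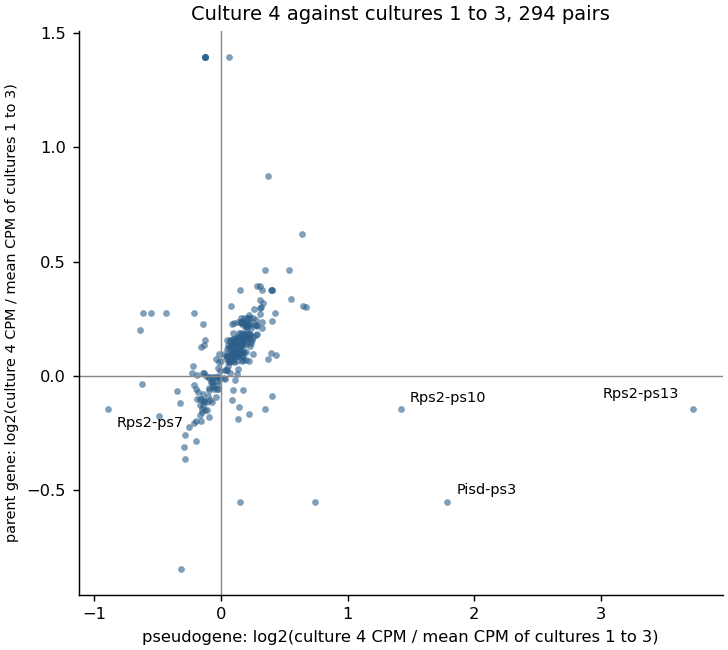
Log2 ratio of culture 4 CPM to the mean CPM of cultures 1 to 3 for 294 pseudogenes (horizontal axis) and their parents (vertical axis), 1 point a pair. Most points lie close to 0 on both axes, Rps2-ps13, Pisd-ps3 and Rps2-ps10 lie far to the right with a parent below 0, and the Rpl35a copies lie at the top, with the parent at 1.40 and the copies near 0.

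More than 2-fold above the mean of cultures 1 to 3 in culture 4 were 3 of the 319 (0.940%), against 0.598% of all genes with a mean of at least 1 CPM, and more than 2-fold below was 1 (0.313%), against 1.89%. The 1 below was H2af-ps2, with 6.68 CPM in culture 4 and 13.7 to 14.3 CPM in cultures 1 to 3. The 3 above were Rps2-ps13, Pisd-ps3 and Rps2-ps10. They are described below with their families, since in each the parent was lower in culture 4. Next in size above were Znf41-ps with 15.4 CPM in culture 4 and 8.51 to 9.32 CPM in the others, and Ldha-ps, a lactate dehydrogenase copy, with 1.67 CPM and 0.867 to 1.13 CPM, which reached the mean of 1 CPM only through culture 4. Next below, apart from an Rps2 copy, were Dynlt1-ps1 with 16.9 CPM in culture 4 and 27.9 to 28.4 CPM, Hsp25-ps1 with 5.64 CPM and 8.54 to 9.97 CPM, and Tmem181b-ps with 7.26 CPM and 11.3 to 11.9 CPM.

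A minimum on the mean of all 4 cultures leaves out low pseudogenes because of their own difference. When 1 CPM in culture 4 or in the mean of cultures 1 to 3 was enough, a minimum chosen after the values were seen, 4 of 322 were more than 2-fold above, against 0.931% of all genes, and 3 were more than 2-fold below, against 1.98%. The 3 added were Zfp133-ps, Serpina3e-ps and Eif3s6-ps4. Zfp133-ps, named for a zinc finger gene and with no shared stretch, had 7 counts in culture 4 and 48, 52 and 50 counts in cultures 1 to 3, or 0.165 CPM in culture 4 and a mean of 1.27 CPM in the others. Serpina3e-ps had 0.464 CPM in culture 4 and 0.699 to 1.19 CPM in the others, and Eif3s6-ps4 had 2.05 CPM in culture 4 and 0.161 to 0.312 CPM. In none of the 3 did culture 4 overlap the other cultures, but they were picked by that difference. Culture 4 also lay outside the range of cultures 1 to 3 in 282 of the 317 with at least 1 CPM everywhere. The share over all genes was not computed.

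Rps2 encodes a small subunit protein and has 10 named copies, 5 of them at 1 CPM or more everywhere. Rps2-ps13 on the X chromosome had 107 CPM in culture 4 and 8.25, 7.44 and 8.51 CPM in cultures 1 to 3. That was 4535 counts in culture 4 and 298 to 339 counts in the others, a log2 difference of 3.73. Rps2-ps10 had 42.6 CPM in culture 4 and 16.4, 14.6 and 16.9 CPM in cultures 1 to 3. Rps2-ps7 had 4.16 CPM in culture 4 and 7.46 to 7.91 CPM in the others, and Rps2 itself had 318 CPM in culture 4 and 342 to 358 CPM. All named copies and the parent together took 496 CPM in culture 4 and 394 to 417 CPM in cultures 1 to 3. Counts of other genes that share stretches with them were not added, and the source of the difference was not tested.

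The 90 bases in which Rps2-ps13 differs most from Rps2 are shown because this copy had the largest difference of culture 4. The copy's window is chrX:52898588-52898677 on the plus strand, and the parent's is coding bases 1 to 90 of Rps2 on chromosome 17, with capitals at the 2 differences. In all, 7 of 882 aligned positions differ, 89.8% of stretches of the copy occur in other transcripts and 66.0% in Rps2, and 72 other genes share at least 1 stretch.
Rps2-ps13: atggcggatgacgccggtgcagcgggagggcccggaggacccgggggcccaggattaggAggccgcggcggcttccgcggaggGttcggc
Rps2: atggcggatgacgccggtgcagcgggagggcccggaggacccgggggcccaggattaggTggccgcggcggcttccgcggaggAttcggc

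The Pisd copies gave a second family of this kind, although GENCODE types Pisd-ps1 and Pisd-ps2 as unprocessed. Pisd encodes the mitochondrial enzyme that makes phosphatidylethanolamine. Pisd-ps3 had 53.1 CPM in culture 4 and 15.2, 14.9 and 16.0 CPM in cultures 1 to 3, and Pisd-ps1 had 16.8 CPM in culture 4 and 9.90, 9.93 and 10.4 CPM. Pisd-ps2 had 4.77 CPM in culture 4 and 3.87 to 4.67 CPM, so that its values nearly met. Its best alignment to Pisd covered only 26.5% of its sequence, at 96.3% identity. Its best protein-coding match was Zfp729a, over 56.9%, at 92.5% identity. Pisd had 52.0 CPM in culture 4 and 73.2 to 78.3 CPM in cultures 1 to 3.

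In the Rpl35a family the parent was the one apart. Rpl35a had 52.1 CPM in culture 4 and 19.9, 19.4 and 20.1 CPM in cultures 1 to 3, while Rpl35a-ps2 had 17.6 CPM in culture 4 and 18.3, 19.1 and 20.1 CPM. In cultures 1 to 3 the copies Rpl35a-ps2, Rpl35a-ps3, Rpl35a-ps4 and Rpl35a-ps6 were above the parent per length, with log2 ratios of 0.33 to 0.50, and in culture 4 they were below it, with -1.12 to -1.07. Actg-ps1 had 66.1 CPM in culture 4 and 98.5 to 107 CPM in the others, with Actg1 at 1434 CPM and 1447 to 1512 CPM. What sets these values was not tested.

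**Figure D5:**
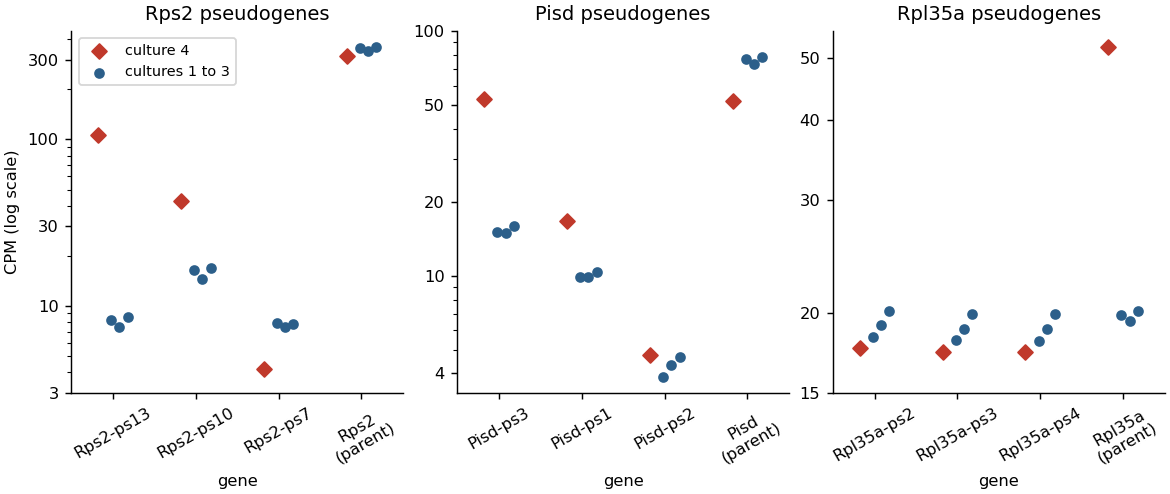
CPM on a log axis of named pseudogenes of Rps2, Pisd and Rpl35a and, last in each panel, of the parent, with a diamond for culture 4 and circles for cultures 1 to 3. In culture 4 Rps2-ps13 reached 107 CPM and Pisd-ps3 53.1 CPM, with parents lower than in cultures 1 to 3. Rpl35a stood at 52.1 CPM, with Rpl35a-ps2, Rpl35a-ps3 and Rpl35a-ps4 below their other values. Not drawn are Rpl35a-ps6, also below its other values, and Rpl35a-ps5. The latter had 4.85 CPM in culture 4, just above its other values of 4.60 to 4.71 CPM.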

How the data were processed

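RNA-seq libraries of 4 cultures were used. The deposited values are estimated counts per gene, given by the authors to 2 decimals, with gene coordinates and combined exon lengths on GRCm38.p6. Per the submitters' processing notes, the tools were bcl2fastq 2.20.0.422, cutadapt 1.17, STAR 2.7.2b and featureCounts 1.6.4 (Subread), whose settings these sources do not state.

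CPM were computed from the raw library sums (41084351, 40097076, 37300485 and 42369109 counts for cultures 1 to 4) and RPKM from the combined exon length, which spans all exons of a gene and so lowers the RPKM of genes with long unused exons. Counts were not rounded. Intervals and floors cover counting error only, since PCR reads are not independent molecules. A parent was the non-pseudogene entry of the same symbol without -ps and its number, or else the only one with that synonym in RefSeq. Sequences came from GENCODE M21 (GRCm38), 659 matched by symbol and 41 by position (50% reciprocal overlap), and were aligned with blastn 2.17.0. The plan named the genome too, but the stretches were searched in transcripts only. Scaling alternatives used edgeR 4.0.16 and DESeq2 1.42.0 in R 4.3.3. The stretch search and the ratio were tested on simulated data. Named were the 20 highest by CPM, the 5 highest and 5 lowest ratios, members with whole counts, the 5 largest differences of culture 4 each way, transcribed ones, the 5 highest within other genes, and their parents; a few that the rule picks are not reported here. Family members beside these were chosen after their values were seen. The pseudogenes and lists were chosen with earlier results of these data known.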

Additional observations from a re-analysis of the deposited data

Results flagged for a closer look

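For 73 named pseudogenes, and for 2 values over the whole set, the 4 libraries were checked for 1 that lies far from the other 3, meaning that its gap to the nearest, as a share of the range of all 4, exceeds Dixon's 95% critical value. Chance alone marks about 1 in 20 such groups, and 10 of the 73 had been named for their difference in culture 4. Of the 75 checks 20 were marked, and in 19 of them culture 4 was the library apart. The checks share the same 4 libraries and were not run over all genes, so no excess can be read from this count. Culture 4 lay outside the range of cultures 1 to 3 in 282 of the 317 pseudogenes with at least 1 CPM everywhere. The share over all genes was not computed, so this count shows nothing particular to pseudogenes. Lowest in culture 4 were Dynlt1-ps1 at 16.9 CPM, Eif4a-ps4 at 181 CPM, H2af-ps2 at 6.68 CPM, Hadhb-ps at 84.6 CPM, Npm3-ps1 at 2.16 CPM, Rps2-ps7 at 4.16 CPM and Tmem181b-ps at 7.26 CPM.

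Highest in culture 4 were Rps2-ps13 at 107 CPM, Rps2-ps10 at 42.6 CPM, Pisd-ps3 at 53.1 CPM, Pisd-ps1 at 16.8 CPM, Ubb-ps at 353 CPM, Pcna-ps2 at 116 CPM, Rps16-ps2 at 105 CPM, Morf4l1-ps1 at 94.9 CPM, Rpl14-ps1 at 70.1 CPM, Znf41-ps at 15.4 CPM and Zfa-ps at 2.30 CPM. The summed CPM of all 745 was also highest in culture 4, at 8642 CPM. The exception was the share of values that were not whole, which was lowest in culture 2, at 80.04%. Of the 12 marked pseudogenes with a parent by name, 7 lay on the same side in culture 4 as their parent and 5 on the other side (Rps2-ps13, Rps2-ps10, Pisd-ps3, Pisd-ps1 and Npm3-ps1). Among those without one, Dynlt1-ps1 and its best match Dynlt1c were both lower in culture 4, with log2 differences of -0.74 and -0.64, while Eif4a-ps4 was lower and Eif4a1 higher.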

How the results depend on the processing

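The count of 317 pseudogenes with at least 1 CPM everywhere stayed within 292 to 331 with minimums of 0.5 and 2 CPM, other scalings or TPM, and was 535 when any count sufficed. Leaving out 1 culture at a time gave 317 to 319. The share of values that were not whole, 83.3%, was 87.6% among values of at least 10 counts and 94.4% among ribosomal protein copies, and 82.8% to 84.4% without 1 culture. The median log2 ratio to the parent, -2.69, was -3.33 without the length term, -3.25 over 389 pseudogenes with more than 3 counts, and -3.25 over 4 with whole counts only. Among those 4 is Ppp4r1l-ps, whose parent Fam118b was found by a synonym and had no sequence match. Chosen after the data were seen, the best sequence match as parent gave -2.65 and GENCODE transcript lengths of copy and parent gave -2.53. These lengths raise the level of a copy whose GENCODE sequence is shorter than its counted entry. The median log2 ratio was -2.70 to -2.69 without 1 culture. Of 22 copies at or above their parent, 5 were left without the length term, 32 were found with GENCODE lengths, and 22 to 26 without 1 culture, the 26 without culture 4, which adds 4 Rpl35a copies. The log2 ratio of Rbpj-ps3 was -1.36, of Mpc1-ps -0.59 and of Mrpl23-ps1 -0.54 without the length term, and GENCODE lengths gave 0.56, 0.95 and -0.28 for them, and 1.69 for Gstm2-ps1. Shared stretches had a median of 74.1% at 36 bases and 38.7% at 100 bases. Culture 4 was more than 1.5-fold apart for 19 pseudogenes, more than 2-fold for 7 with a minimum of 1 CPM in culture 4 or in the mean of the others (chosen after the data were seen), and more than 2-fold for 4 under TMM and without any 1 of the other cultures.

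No paired analysis was possible because the series has 1 group. Depth limits pseudogenes with at most 3 counts. Where a copy shares stretches with its parent, its level can hold reads of the parent, and no deposited value tells them apart.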
